A study of Mus musculus with 4 samples.

Results

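The transcripts examined were those of the enteroendocrine hormones, chosen as every probe set whose platform-annotation symbol was Gip, Gcg, Tac1, Cck, Sct, Sst, Nts, Ghrl or Pyy, which encode gut peptide hormones, or Tph1, which encodes the enzyme that starts serotonin synthesis. These 10 genes, of 18193 on the array with 1 symbol, had 11 probe sets of 45037, 2 of them for Tac1. They were measured in Paneth cells, the antimicrobial secretory cells of the crypt base, cut by laser capture from Atg16-hypomorph mice (2 arrays) and from wildtype mice (2 arrays). Both groups shared a mixed C57BL/6 and 129ola background, and hypomorph means that Atg16l1, a gene needed to form autophagosomes, works at a reduced level rather than being absent. The sources used here do not give the cells and animals behind an array, the ages, the stretch of intestine or the kind of allele. The p-values therefore measure only the spread between these arrays, which may be technical, and with 2 arrays a group the precision is low.

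Enteroendocrine cells are scattered hormone cells of the gut epithelium that arise from the same crypt stem cells as Paneth cells and sense nutrients in the lumen. Each subtype is known for a leading product, such as Gip in K cells, proglucagon and peptide YY in L cells, and serotonin in enterochromaffin cells. The precursors are cut to active peptides by prohormone convertases and stored with granins in dense granules. Several of these genes, among them Tac1, Sst, Cck and Nts, are also used by neurons.

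The arrays were alike in overall signal, with medians of 47.2 to 49.5 intensity units. Spearman's rho over all probe sets (a description, since probe sets are no replicates) was 0.968 within hypomorph and 0.972 within wildtype. Between a hypomorph and a wildtype array it was 0.956 to 0.969, so the highest value between groups was about that within hypomorph. The brighter Atg16l1 probe set read 966 and 995 on the hypomorph arrays, against 1335 and 1183 on the wildtype arrays, and was not called lower (log2 difference -0.35, limma, adjusted p = 0.102). Where it lies relative to the allele's lesion is unknown here, so it does not check the genotype. Among the Paneth markers, the lysozyme gene Lyz1 read 14561 to 15097 in hypomorph and 15481 to 16021 in wildtype. The dimmest value on that list was 26.9. Its 11 markers summed to 69065 to 74632 in hypomorph and 73053 to 73123 in wildtype. Markers of another lineage were bright too, with 13 goblet markers at 62580 to 64305 in hypomorph and 63282 to 65489 in wildtype. How pure the captures were was not tested. The groups also differed in the X-inactivation RNA Xist, at 4414 and 4510 in hypomorph and 18.0 and 25.6 in wildtype, so sex and genotype cannot be told apart here.

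Gip, Gcg and Tac1 were lower in hypomorph Paneth cell samples, and no hormone probe set was called higher. The mean Gip intensity was 36.2% of the wildtype mean, that of Gcg 69.4% and that of Tac1 69.0%. Of the 11 probe sets, 7 passed the brightness filter (a mean log2(intensity + 32) of at least 6.32) and were tested in limma, and 3 of these 7 were called lower at an adjusted p under 0.05. Among all 22519 tested probe sets 377 were called lower, or 1.67%, and 459 higher, or 2.04%. At an unadjusted p under 0.05 there were again 3 lower and 0 higher hormone probe sets of 7, beside 11.5% lower and 9.03% higher among all tested probe sets. All 7 averaged above the filter level in each group on its own. The calls depend on that filter. Without it, when 45037 probe sets were tested and 0.266% called lower and 0.406% higher, 0 hormone probe sets were called in limma. Their adjusted p was then 0.072 for Gip, 0.0519 for Gcg and 0.0851 for Tac1, with these 3 probe sets lower and 0 higher at an unadjusted p under 0.05, beside 7.19% lower and 6.71% higher of all probe sets. In these bulk captures, fewer cells of a type and less RNA per cell cannot be told apart.

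**Figure D1:**
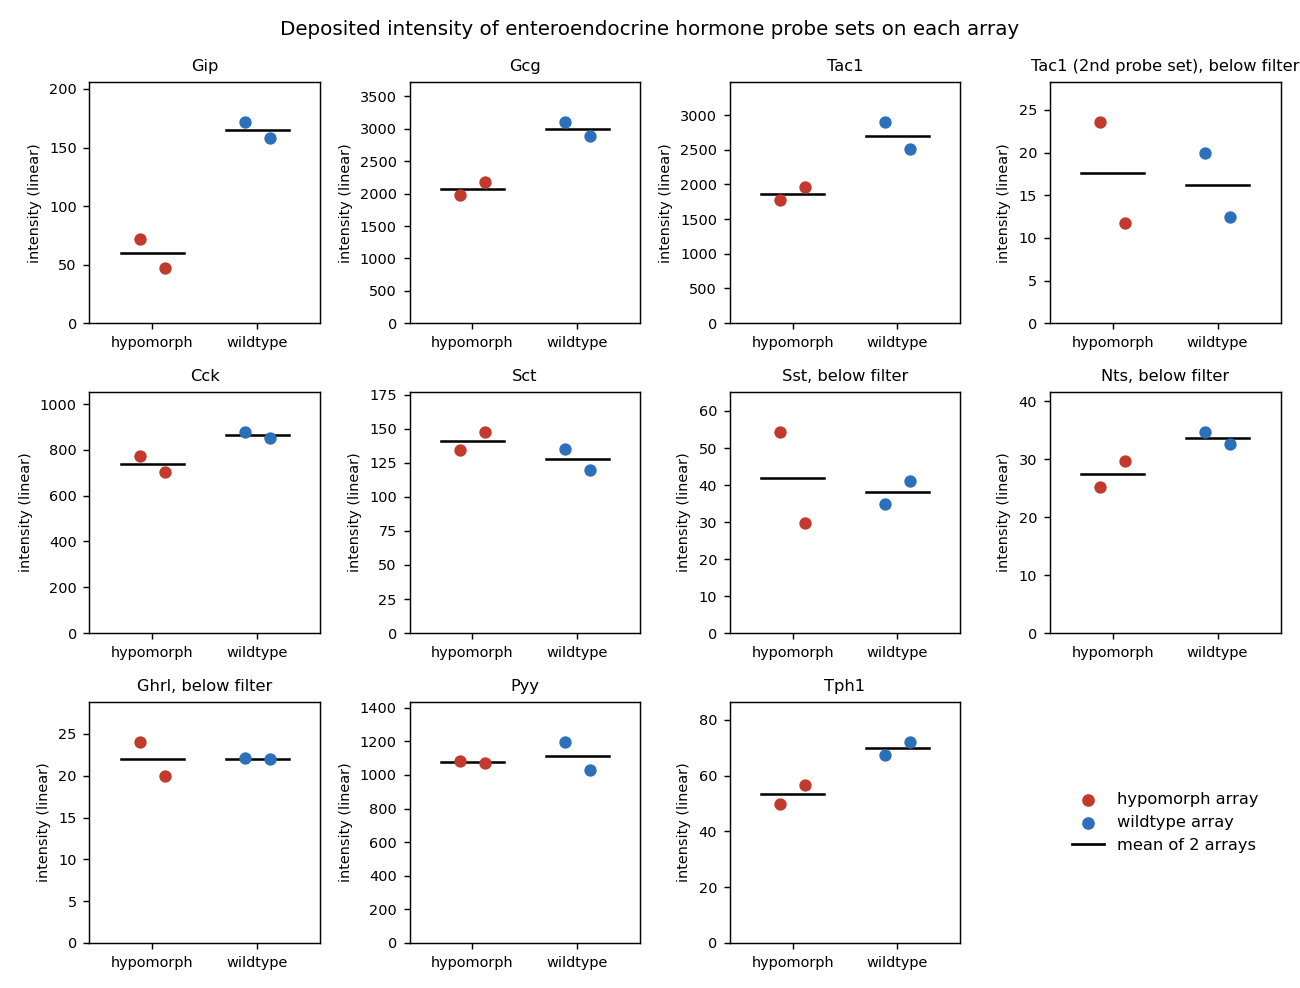
Deposited linear intensity of each hormone probe set on each array, 1 panel per probe set with its own scale from 0; points are arrays and black lines the means of 2 arrays. Both hypomorph arrays lie below both wildtype arrays for Gip, Gcg, the brighter Tac1 probe set, Cck, Nts and Tph1.

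The promoter sequences of the 3 genes that fell are shown because these are the hormones the comparison turns on, although the arrays measured nothing at the promoters themselves. They were read from RefSeq (GRCm38.p6) and run from 250 bases before to 50 bases after the annotated start of each gene, 5′ to 3′ on its own strand. Capitals mark the E-box CANNTG, which basic helix-loop-helix factors such as Neurod1 bind, the GATA motif AGATAA and the TATA box TATAAA, searched on both strands. The windows are chr11:96024295-96024594 on the plus strand for Gip, chr2:62483604-62483903 on the minus strand for Gcg and chr6:7554811-7555110 on the plus strand for Tac1.
Gip: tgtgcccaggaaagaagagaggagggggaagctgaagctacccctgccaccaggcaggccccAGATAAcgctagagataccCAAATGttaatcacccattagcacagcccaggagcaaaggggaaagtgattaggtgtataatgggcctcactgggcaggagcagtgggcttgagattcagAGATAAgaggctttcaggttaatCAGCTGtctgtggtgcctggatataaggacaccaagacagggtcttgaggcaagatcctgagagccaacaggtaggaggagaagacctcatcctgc
Gcg: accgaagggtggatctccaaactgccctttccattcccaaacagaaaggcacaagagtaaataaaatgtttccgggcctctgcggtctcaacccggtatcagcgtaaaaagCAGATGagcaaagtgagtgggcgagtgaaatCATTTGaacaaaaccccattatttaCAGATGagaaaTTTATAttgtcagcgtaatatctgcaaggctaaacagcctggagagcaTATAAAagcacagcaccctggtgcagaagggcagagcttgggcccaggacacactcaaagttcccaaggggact
Tac1: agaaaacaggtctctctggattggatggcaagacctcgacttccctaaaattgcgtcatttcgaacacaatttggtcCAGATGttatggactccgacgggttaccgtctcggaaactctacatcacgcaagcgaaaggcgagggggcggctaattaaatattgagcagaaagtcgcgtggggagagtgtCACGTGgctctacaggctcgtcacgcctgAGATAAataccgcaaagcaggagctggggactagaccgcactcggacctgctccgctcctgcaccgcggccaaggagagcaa

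The Gip window held 2 E-boxes and 2 GATA motifs, the nearer GATA motif beginning 69 bases before the start and the nearer E-box 46 bases before it. The Gcg window held 3 E-boxes, at 139, 108 and 83 bases before the start, and 2 TATA boxes, of which the one on the gene's own strand began 24 bases before it. The Tac1 window held 2 E-boxes, at 173 and 61 bases before the start, and 1 GATA motif at 32 bases. An E-box occurred in a window of each of the 10 hormone genes and in 14 of their 15 windows. It also occurred in 72.3% of all 32851 promoter windows, so it does not set them apart. The GATA motif was found in 4 of the 10 genes (Gip, Tac1, Cck and Nts), or 4 of the 15 windows, and in 11.2% of all windows. The TATA box was found in 2 of the 10 (Gcg and Sct), or 2 of the 15 windows, and in 13.6% of all windows. The full cAMP response element TGACGTCA was found in 1 of the 10, Sst, or 1 of the 15 windows, and in 1.79% of all windows. In Sst it began 48 bases before the start. A match is a description of letters, not evidence of binding, and some hormone genes have more than 1 window.

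Gip and Gcg, whose products promote insulin release after a meal, both fell. Gip encodes glucose-dependent insulinotropic polypeptide, the K cell hormone that raises insulin secretion after a meal. It read 72.0 and 47.3 on the hypomorph arrays, against 171 and 158 on the wildtype arrays. The groups lie far apart, and the hypomorph arrays differ from each other by more, relative to their mean, than the wildtype arrays do. The mean was 59.6 ± 17.5 in hypomorph and 165 ± 9.21 in wildtype (SD, n = 2 arrays each), and the difference in mean log2(intensity + 32) was -1.12 (SE 0.18, 95% interval -1.53 to -0.71; limma, adjusted p = 0.00984). That placed it 67th from the lowest of 22519 tested differences. As Gip was dim in hypomorph, its size depends on the constant added before the log. The difference was -1.48 with 1 added in place of 32 and -0.65 with a constant 4 times as large as 32, and it was called with either.

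Gcg encodes proglucagon, which L cells cut to the glucagon-like peptides and pancreatic alpha cells to glucagon. It read 1981 and 2177 on the hypomorph arrays, against 3098 and 2892 on the wildtype arrays. The spread within each group was small beside the gap between them. The log2 difference was -0.52 (SE 0.084, 95% interval -0.71 to -0.33), with an adjusted p of 0.00879 in limma. Without the intensity trend in the variance prior the call was lost (limma, adjusted p = 0.0991). Pyy, which encodes the other leading L cell product, peptide YY, a peptide that slows gut transit, read 1084 and 1070 on the hypomorph arrays, against 1195 and 1029 on the wildtype arrays. The hypomorph arrays lie between the wildtype arrays, and the log2 difference of -0.042 (95% interval -0.28 to 0.20) was not called (limma, adjusted p = 0.871). Its sign turned to 0.063 without wildtype replicate 1. Whether the changes of Gcg and Pyy differ from each other was not tested.

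Tac1 encodes the tachykinin precursor of substance P and neurokinin A, made by enterochromaffin cells and enteric neurons. Its brighter probe set read 1769 and 1960 on the hypomorph arrays, against 2892 and 2514 on the wildtype arrays. Both hypomorph arrays lie below both wildtype arrays, whose own spread was wider. The log2 difference was -0.53 (SE 0.096, 95% interval -0.74 to -0.31), with an adjusted p of 0.0161 in limma. Leaving out wildtype replicate 1, the brighter of the 2, gave -0.43 and ended the call (adjusted p = 0.093), as did leaving out the intensity trend (adjusted p = 0.116). The second Tac1 probe set, below the filter, read 23.53 and 11.74 in hypomorph and 19.98 and 12.44 in wildtype, values that overlap near the floor. Averaged over both probe sets, the gene's log2 difference was -0.25 and was not called (adjusted p = 0.233).

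Tph1, the other enterochromaffin gene, encodes tryptophan hydroxylase 1, the rate-limiting enzyme of serotonin synthesis outside the brain. It read 49.9 and 56.7 on the hypomorph arrays, against 67.5 and 72.0 on the wildtype arrays. The groups do not overlap, but at this dim level the log2 difference of -0.25 had a 95% interval of -0.62 to 0.11 and was not called (limma, adjusted p = 0.417).

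Cck and Sct encode cholecystokinin and secretin, the duodenal hormones that drive pancreatic enzyme and bicarbonate release. Cck read 771 and 702 in hypomorph and 877 and 853 in wildtype. The groups were apart, with a log2 difference of -0.22 (95% interval -0.47 to 0.03) that was not called (limma, adjusted p = 0.293). Sct read 135 and 148 in hypomorph and 136 and 120 in wildtype. These values overlap, and Sct was the 1 tested hormone with a difference above 0, at 0.12 (95% interval -0.24 to 0.48; limma, adjusted p = 0.729).

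The remaining 3 hormones were too dim to test, and their values are given without a call. Sst encodes somatostatin, the D cell peptide that restrains the release of other hormones, and read 54.2 and 29.8 in hypomorph and 34.97 and 41.1 in wildtype. The wildtype values lie inside the hypomorph range. Nts encodes neurotensin, a peptide of ileal N cells, and read 25.2 and 29.7 in hypomorph and 34.6 and 32.7 in wildtype. Both hypomorph values are lower, with a log2 difference of -0.14 and, in the fit without a filter, an unadjusted p of 0.372 in limma. Ghrl encodes the appetite hormone ghrelin, known mainly from the stomach, and read 24.02 and 20.02 in hypomorph and 22.09 and 21.95 in wildtype, with a mean of 22.02 in each group. Detection calls were not used here, so whether such dim signals stand above background cannot be said.

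**Figure D2:**
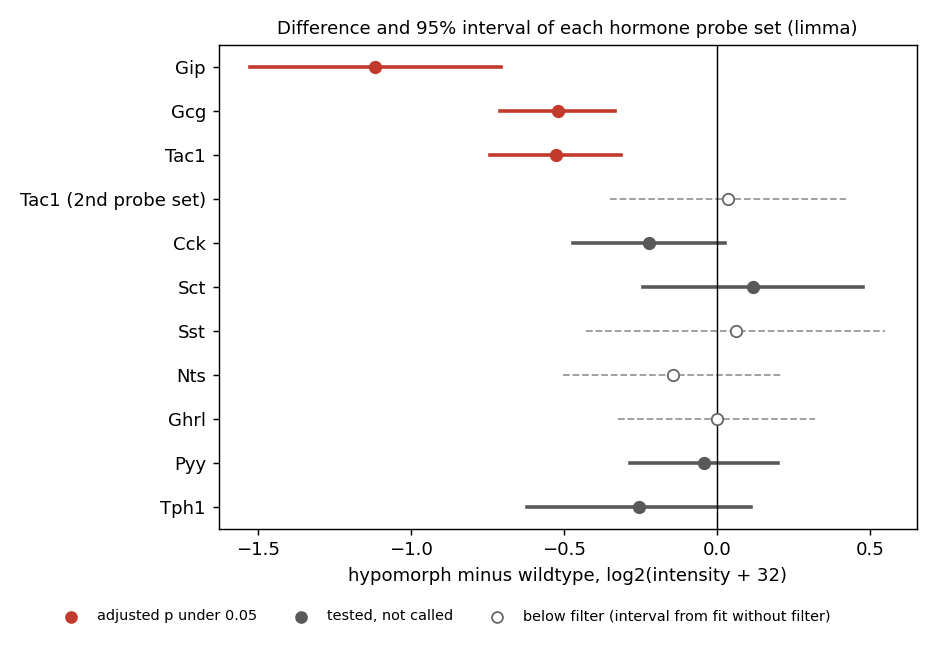
Log2 difference (hypomorph minus wildtype, log2(intensity + 32) scale) of each hormone probe set with its 95% interval from limma; red marks an adjusted p under 0.05, grey a tested probe set that was not called, and open points probe sets below the filter, with intervals from the fit without a filter. The intervals of Gip, Gcg and Tac1 lie below 0, and all others span it.

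Across all 11 hormone probe sets, both hypomorph arrays were below both wildtype arrays in 6, both above in 0, and the groups overlapped in 5. Such separation was common on these arrays, at 23.4% of all probe sets for lower and 21.6% for higher. Of the 7 tested hormone probe sets 5 were separated in the lower direction and 0 in the higher, beside 29.9% and 21.8% of all tested probe sets. The median log2 difference of the 7 tested hormone probe sets was -0.25, beside -0.031 over all tested probe sets.

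**Figure D3:**
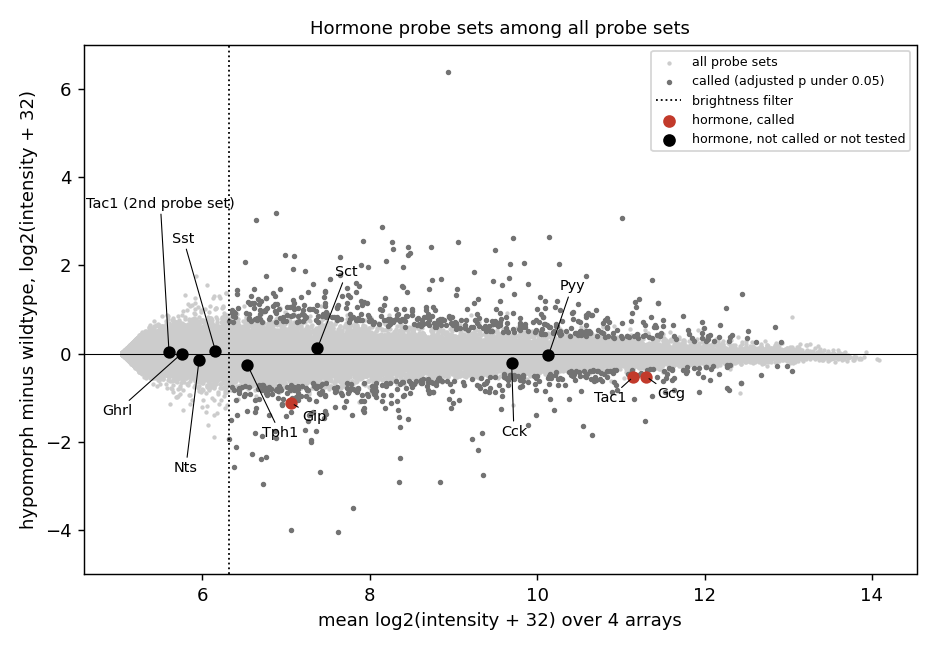
Log2 difference (hypomorph minus wildtype) against mean log2(intensity + 32) over the 4 arrays for every probe set, called ones in dark grey, with the hormones labelled and the brightness filter dotted. Gip lies among the lower calls at low brightness, Gcg and Tac1 lie at the lower edge of the cloud at high brightness, and the other hormones lie within it.

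Genes for making, packing, sensing and degrading hormones, and genes of other gut peptides, were called in both directions. Of 102 genes on 7 endocrine lists without the hormones, 55 were tested, and limma called 2 lower and 4 higher. Over all 11577 tested genes 1.70% were called lower and 2.53% higher. The median log2 difference was 0.066 on the lists and -0.024 over all tested genes. Of the list calls, 1 lower and 3 higher were other gut peptides. Among the higher ones, Grp passed the brightness filter only through its hypomorph arrays. Among granins and processing enzymes 1 of 8 was called lower, Chgb, a granin of the hormone granule. Of these 8 genes 3 had a difference below 0 and 5 above, with a median log2 difference of 0.066. Chgb read 3614 and 3795 in hypomorph and 4749 and 4484 in wildtype, and its difference in mean log2(intensity + 32) was -0.31 (limma, adjusted p = 0.0353). That call was lost on dropping hypomorph replicate 1 (adjusted p = 0.0774), wildtype replicate 1 (0.228), wildtype replicate 2 (0.0908), the filter (0.12) or the intensity trend (0.2). The related granin Chga read 606 and 591 in hypomorph and 633 and 711 in wildtype and was not called (adjusted p = 0.498). The convertase gene Pcsk1, whose product cuts proglucagon and the Gip precursor in the gut, read 48.5 and 51.7 in hypomorph and 77.4 and 65.5 in wildtype, and was not called either (adjusted p = 0.295). Chga and Pcsk1 were picked with their values already seen, and with Chgb they are the 3 genes of this list below 0. The highest difference on the list was that of the granin Scg2, at 0.61 (limma, adjusted p = 0.0776).

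Of the 11 tested regulators of endocrine fate 0 were called in limma, while 5 were lower and 1 higher at an unadjusted p under 0.05. Over all 11577 tested genes 11.6% were lower and 10% higher at that unadjusted threshold. The 5 lower ones were St18, Isl1, Foxa2, Insm1 and Neurod1. Of the 11 genes 9 had a difference below 0 and 2 above, with a median log2 difference of -0.36. In 8 both hypomorph arrays were below both wildtype arrays, and in 2 both were above. Over all tested probe sets these shares were 29.9% and 21.8%. St18, a zinc finger factor, read 79.5 and 112 in hypomorph and 157 and 181 in wildtype (log2 difference -0.66, adjusted p = 0.0801 in limma). Its relative Myt1 had a difference of the opposite sign, at 74.6 and 114 in hypomorph and 53.7 and 44.4 in wildtype (0.62, adjusted p = 0.112). Neurog3, the factor that commits progenitors to the endocrine fate, read 641 and 632 in hypomorph and 690 and 604 in wildtype, with the hypomorph values inside the wildtype range (-0.020, adjusted p = 0.947). Neurod1, which acts after Neurog3, read 216 and 184 in hypomorph and 276 and 257 in wildtype (-0.37, adjusted p = 0.215). Neurog3 and Neurod1 were likewise picked with values seen.

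For serotonin handling 0 of 8 genes were called in limma, with 1 lower and 1 higher at an unadjusted p under 0.05, close to the shares of 11.6% and 10% over all genes. They were the vesicular monoamine transporter Slc18a1, at 330 and 392 in hypomorph and 492 and 451 in wildtype (log2 difference -0.36, adjusted p = 0.185), and Gch1, which begins the synthesis of the tryptophan hydroxylase cofactor, at 143 and 121 in hypomorph and 93.1 and 87.9 in wildtype (0.42, adjusted p = 0.19).

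Other gut peptides and secreted products went both ways, with 1 of 10 called lower and 3 higher. Of the 3 called higher, Grp lay below the filter level of 47.7 intensity units on both wildtype arrays. It was therefore tested only through its high hypomorph arrays, and its call cannot be separated from that selection. Reg4, a secreted lectin known from enteroendocrine and goblet cells, fell to 1783 and 1961 in hypomorph, against 3735 and 3553 in wildtype (log2 difference -0.95, SE 0.081, adjusted p = 0.000177 in limma). It was called under every alternative and without each array in turn. Vip, a neuropeptide of enteric neurons, rose to 3412 and 4113 in hypomorph, against 2271 and 2119 in wildtype (0.76, adjusted p = 0.00199), a call lost only without the intensity trend (adjusted p = 0.0696). The neuronal gastrin-releasing peptide gene Grp read 70.9 and 90.6 in hypomorph and 25.9 and 36.1 in wildtype (0.84, adjusted p = 0.035), and lost its call without each wildtype replicate (adjusted p = 0.194 and 0.0651), without the filter (0.148) and without the intensity trend (0.0686). The vasodilator peptide gene Adm read 177 and 188 in hypomorph and 109 and 89.4 in wildtype (0.71, adjusted p = 0.0458), and lost its call without any 1 of the arrays (adjusted p of 0.0629 to 0.268), without the filter (0.15) and without the trend (0.0686). The second Adm probe set, below the filter, read 19.7 and 13.28 in hypomorph and 11.33 and 15.94 in wildtype, values that overlap (0.086). The list's median log2 difference was 0.36.

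Receptors and sensors gave no calls in the reported setting, but some under other settings. Of 25 hormone and serotonin receptor genes on the array 19 were below the filter, among them Gipr, Glp1r, Cckar and Sctr, and of the other 6 limma called 0, with 1 lower and 3 higher at an unadjusted p under 0.05 (all genes: 11.6% lower, 10% higher). Htr4, a serotonin receptor, read 206 and 191 in hypomorph and 325 and 313 in wildtype (log2 difference -0.61, adjusted p = 0.0513 in limma). It was called lower with the robust prior (limma, adjusted p = 0.0418). Its second probe set, below the filter, went the other way, at 11.08 and 12.75 in hypomorph and 8.93 and 1.38 in wildtype (0.25). The neurotensin receptor Ntsr2 read 11701 and 10634 in hypomorph and 9914 and 9744 in wildtype (0.18, adjusted p = 0.106). Of 6 tested nutrient sensors and transporters 0 were called in limma, with 1 lower and 2 higher at an unadjusted p under 0.05, beside the same shares over all genes. Ffar2, a receptor for short-chain fatty acids, read 646 and 851 in hypomorph and 1179 and 1067 in wildtype (-0.58, adjusted p = 0.0513), but its second probe set gave 0.20. The brighter probe set was called lower with the larger pseudocount (adjusted p = 0.049), the upper quartile filter (0.046), the robust prior (0.0377) and without hypomorph replicate 2 (0.00805). Slc15a1, the intestinal peptide transporter, read 65.9 and 88.1 in hypomorph and 46.1 and 44.4 in wildtype (0.49, adjusted p = 0.155). The somatostatin receptor Sstr2, picked after its values were seen, read 95.7 and 68.0 in hypomorph and 43.2 and 51.5 in wildtype. Slc15a1 and Sstr2 both count among the higher genes above. Both averaged below the filter level in wildtype, so they were tested only through their hypomorph arrays.

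Among enzymes that mature or degrade peptides 1 of 6 was called, in the higher direction. Enpep, a brush border aminopeptidase, rose to 5066 and 5357 in hypomorph, against 3917 and 4139 in wildtype (log2 difference 0.37, adjusted p = 0.0151 in limma), a call lost without wildtype replicate 1 (adjusted p = 0.106), without the filter (0.0775) and without the trend (0.16). Dpp4, which inactivates Gip and glucagon-like peptide 1 and was chosen after its values were seen, read 961 and 1017 in hypomorph and 653 and 819 in wildtype (0.42, adjusted p = 0.106), so the groups were apart but it was not called. Its 3 other tested probe sets disagreed in sign, at 0.29, -0.14 and -0.12.

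**Figure D4:**
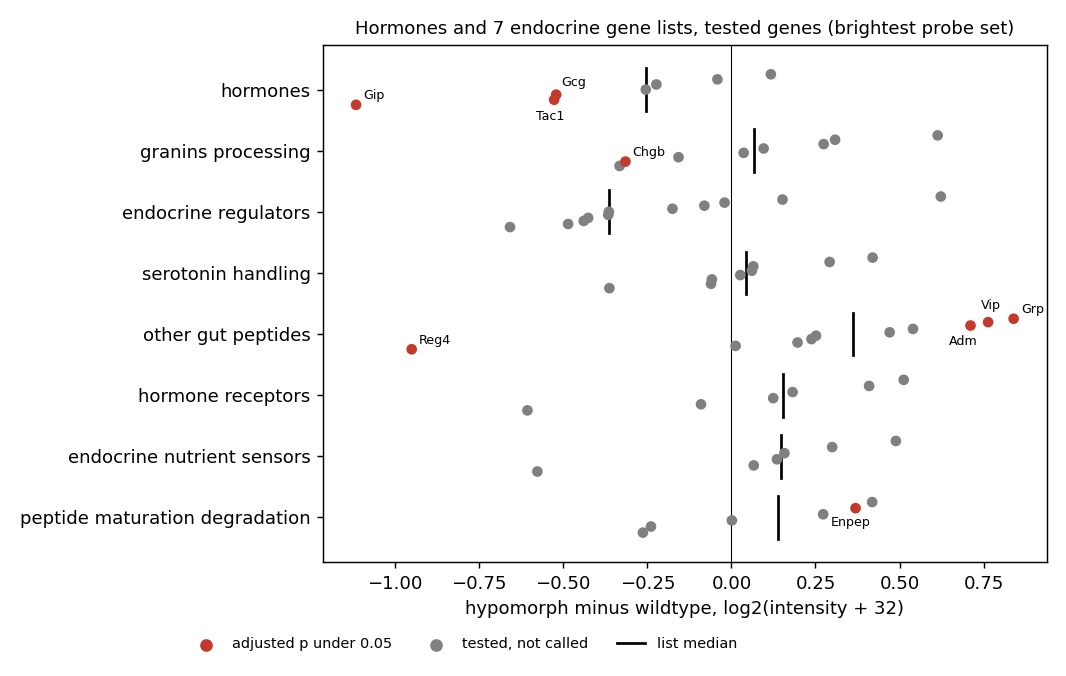
Log2 difference (hypomorph minus wildtype) of tested genes in the hormone set and in 7 endocrine lists, 1 point per gene by its brightest probe set, red where the adjusted p is under 0.05, with a black bar at each list's median. The hormones and the endocrine regulators have medians of -0.25 and -0.36, and the other 6 lists have medians of 0.044 to 0.36.

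Markers listed for other cell types were examined beside these hormones, and some differed between the groups. Over all 11577 tested genes limma called 1.70% lower and 2.53% higher, the shares to set beside the counts of called markers. Fat cell markers rose in 9 of 11 tested cases (limma), and their summed intensity was 33286 to 33410 in hypomorph and 10498 to 10666 in wildtype. Enterocyte markers rose in 13 of 20, with sums of 56953 to 59541 in hypomorph and 43601 to 44123 in wildtype. Of the proximal and of the distal small intestine genes 3 of 5 each were called higher. These lists share genes with the enterocyte list, among them Fabp1, Apoa4 and Slc51a, so their counts are not separate from it. On the distal list 1 gene was lower and 3 higher at an unadjusted p under 0.05 in limma, the lower one at a log2 difference of -0.54. Enteric neuron and glia markers, which bear on Tac1, rose in 1 of 9 (Vip) and fell in 0, and 4 had an unadjusted p under 0.05, all higher (all genes: 11.6% lower, 10% higher). Their sums were 4186 to 4957 in hypomorph and 2791 to 2945 in wildtype, most of it from Vip. The other 18 markers on that list summed to 774 and 843 in hypomorph and 674 and 672 in wildtype. Of 11 Paneth markers 8 had a difference below 0 and 3 above, with a median of -0.087 and 2 lower and 2 higher at an unadjusted p under 0.05. Called were 2, Reg3a and Reg3g, both higher, and both calls were lost without the filter, the intensity trend or wildtype replicate 1 (adjusted p of 0.0851 to 0.272). Reg3a averaged below the filter level in wildtype (26.9 and 49.4), so it was tested only through its hypomorph arrays (99.2 and 92.7). Paneth markers had sums of 69065 to 74632 in hypomorph and 73053 to 73123 in wildtype. Of 13 stem and progenitor markers 12 had a difference below 0. Separated in the lower direction were 11, beside 29.9% of all tested probe sets. Called lower were 2, Msi1 and Cd44. Both calls were lost without the filter and without wildtype replicate 1, and that of Cd44 also without the trend, without wildtype replicate 2 and with gene means (adjusted p of 0.0557 to 0.148 over these). Of 6 tuft cell markers 1 was called lower, Rgs13, a call lost without the filter, the trend, hypomorph replicate 1 or either wildtype replicate (adjusted p of 0.0631 to 0.211). Fibroblast and smooth muscle markers rose in 4 of 15 and leukocyte markers in 2 of 11. Limma called 0 of 13 goblet, 0 of 8 endothelial and 0 of 1 tested pancreatic markers. At an unadjusted p under 0.05 in limma, 3 goblet markers were lower, 2 goblet and 2 endothelial markers higher, and 0 pancreatic markers differed. Over all genes 11.6% were lower and 10% higher at that unadjusted threshold. The pancreatic list, which bears on Gcg and Sst, had 11 of 12 markers below the filter and sums of 230 to 249 in hypomorph and 238 to 245 in wildtype. No marker was listed at 0. Whether such cells were in the captures, or had a part in the hormone differences, was not tested.

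**Figure D5:**
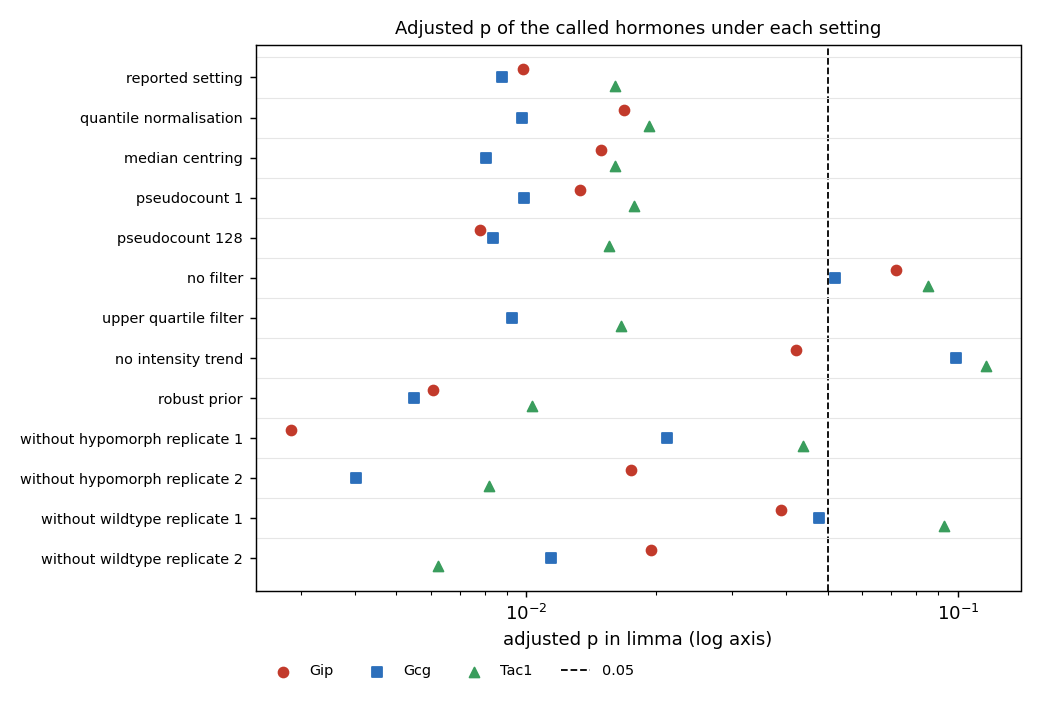
Adjusted p in limma (log axis) of Gip, Gcg and Tac1 in the reported setting, under alternative processing and with each array left out. The threshold of 0.05 is dashed. The replicate block and gene means are not drawn, and with gene means Tac1 was not called (limma, adjusted p = 0.233). Gip did not pass the upper quartile filter and has no point there. All 3 lie right of the threshold without a filter, Gcg and Tac1 without the intensity trend, and Tac1 without wildtype replicate 1.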

How the data were processed

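Laser-captured Paneth cell RNA was, per the labels' protocols, isolated with PicoPure, amplified with RiboAmp Plus and biotin-labelled, with 1 array per sample. The authors deposited linear intensity values, 1 per probe set and array. The sources used here do not give their scaling, background correction or summary method. They were used as deposited, since the arrays' medians were alike.

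Of 45101 probe sets, 64 controls were left out. The platform annotation gave 34945 of the others 1 symbol, 932 several and 9160 none, and only the first were named. All 10 hormone gene IDs were found in the RefSeq gene table (GRCm38.p6). Values were tested as log2(intensity + 32), which understates changes of dim genes, over the 22519 probe sets at or above the median mean, in limma 3.58.1 (R 4.3.3) with an intensity trend, the group as the only term and Benjamini-Hochberg adjustment over all of them. The fit had 2 residual and 7.81 prior degrees of freedom. For each listed gene the brightest probe set was taken.

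The alternatives were other scalings, pseudocounts, filters, priors, the replicate number as a block, gene means and leaving out each array. The 10 hormones and the lists were chosen with earlier results of these data known. Named were the hormones, Atg16l1 and, per list, called genes by size (up to 4 per endocrine list and 2 per marker list) or otherwise the 2 with the smallest p. Others are marked as chosen after their values were seen, and some marker genes are given by count only. The fit was tested on simulated data. Promoter motifs were searched in Python 3.11.15 with pandas 2.3.3.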

Additional observations from a re-analysis of the deposited data

How the results depend on the processing

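Gip, Gcg and Tac1 stayed lower under every alternative in which they were tested, but not always called. Without a brightness filter the differences of -1.12, -0.52 and -0.53 all missed the threshold (limma, adjusted p = 0.072, 0.0519 and 0.0851). The hormone calls then numbered 0, calls over all probe sets were 120 lower and 183 higher, those on the endocrine lists 1 lower and 1 higher, and 0 marker genes were called lower. There 45037 probe sets were tested in place of 22519. Without the intensity trend Gcg at -0.52 and Tac1 at -0.53 missed it (adjusted p = 0.0991 and 0.116), which left 1 hormone, 131 probe sets lower and 192 higher in all, 1 endocrine gene lower and 0 higher, and 1 marker gene lower. The upper quartile filter gave 244 probe sets lower and 2 endocrine genes higher, the robust prior 4 endocrine genes lower, and gene means 174 genes lower, 261 higher and 1 marker gene lower.

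With 1 array left out, 2 to 3 hormones were called lower, and the difference ranged from -1.31 to -0.92 for Gip, -0.59 to -0.45 for Gcg, -0.63 to -0.43 for Tac1 and -0.15 to 0.063 for Pyy, whose sign turned without wildtype replicate 1. Calls over all probe sets ranged from 178 (without wildtype replicate 1) to 942 (without hypomorph replicate 2) lower, with 228 when hypomorph replicate 1 was dropped and 183 when wildtype replicate 2 was, and from 317 to 706 higher, those on the endocrine lists from 1 to 4 lower and 1 to 5 higher, and marker genes lower from 0 to 9. The pancreatic marker Cela1 ranged from -0.13 to 0.031, turning sign without hypomorph replicate 1.

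The labels number replicates 1 and 2 in both groups without saying that a number marks a shared animal or day. Deviations of equally numbered arrays from their group means had a correlation of 0.264 over tested probe sets. With the replicate block, limma called the same 3 hormones, and 1717 probe sets lower and 1489 higher. It also called 7 endocrine genes lower and 10 higher, and 13 marker genes lower. Atg16l1, Htr4 and Ffar2 were among the genes called lower with the block (limma, adjusted p = 0.017, 0.00179 and 4.66e-05). The causes of these changes were not tested.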

Other observations

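Some endocrine genes below the brightness filter had groups that did not overlap, and were picked after their values were seen. Such separation was common, at 23.4% of all probe sets for lower and 21.6% for higher. Mboat4, the enzyme that acylates ghrelin, read 22.7 and 18.7 in hypomorph and 48.2 and 47.2 in wildtype, while Ghrl itself had the same mean in both groups. Nmu, the gene of neuromedin U, read 1 and 8.96 in hypomorph and 41.9 and 21.2 in wildtype. Pam, which amidates peptide hormones, read 45.4 and 29.5 in hypomorph and 7.35 and 15.1 in wildtype. In the limma fit without a filter the unadjusted p was 0.00603, 0.00508 and 0.00591 for these 3 genes, and the adjusted p was 0.187, 0.176 and 0.186, so none was called. Scg2, a granin that was tested, read 115 and 96.5 in hypomorph and 60.8 and 54.9 in wildtype (adjusted p = 0.0776 in limma), in the opposite direction to Chgb.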
